A study of Mus musculus with 6 samples.

Results

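The miR-15/16 family and its relatives miR-322 and miR-503 were followed in the left ventricle of male C57BL/6 mice given sunitinib, a tyrosine kinase inhibitor used against cancer, or vehicle. The 7 mature miRNAs were taken by name, mmu-miR-15a-5p, mmu-miR-15b-5p, mmu-miR-16-5p, mmu-miR-195a-5p, mmu-miR-497a-5p, mmu-miR-322-5p and mmu-miR-503-5p (written below without the mouse prefix), out of 1881 mouse miRNAs on the arrays. There were 3 sunitinib and 3 control samples, each labelled with Cy3 from 200 ng of total RNA and hybridised alone to an Agilent mouse miRNA array. The study's title concerns miR-146a and heart dysfunction under sunitinib. The sources used here give no dose or duration of treatment. Nor do the labels say whether the samples are separate animals, so the p-values cover the spread among these arrays, part of which may be technical.

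A microRNA guides the silencing complex to messenger RNAs that pair with its seed, the bases near its 5′ end, so miRNAs with one seed can repress overlapping sets of targets. The miR-15/16 family is best known as a brake on cell division and survival, through targets such as cyclins, Chek1 and Bcl2. In the mouse heart, miR-195 has been linked to the withdrawal of cardiomyocytes from the cell cycle after birth. In mouse muscle, miR-322 and miR-503 have been linked to cell cycle exit through Cdc25a.

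All 7 members had a mature sequence in RefSeq (GRCm38.p6), shown here because the shared seed defines the group and the 3′ parts set its members apart. The seed, bases 2 to 8, is in capitals.
miR-15a-5p: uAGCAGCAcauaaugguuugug
miR-15b-5p: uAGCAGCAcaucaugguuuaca
miR-16-5p: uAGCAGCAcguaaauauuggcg
miR-195a-5p: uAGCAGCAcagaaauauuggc
miR-497a-5p: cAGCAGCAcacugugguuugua
miR-322-5p: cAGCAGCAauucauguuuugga
miR-503-5p: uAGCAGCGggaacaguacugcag
The seed AGCAGCA was shared by 6 members, while miR-503-5p has AGCAGCG. After base 8, identity between members varied. Counted by position from the 5′ end, miR-15a-5p and miR-15b-5p were identical at 10 of these 14 bases, miR-16-5p and miR-195a-5p at 11 of 13, and miR-503-5p and its cluster partner miR-322-5p at 5 of 14.

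The members lie in 4 clusters, within which the hairpins are cut from a common primary transcript. The strand and positions below are those of the longer probe of each member in the array files (mm9), and the host genes are named from RefSeq. For miR-15a-5p, miR-15b-5p, miR-322-5p and miR-503-5p the span listed in the files is shorter than the probe. miR-15a-5p maps to chromosome 14, 62250879 to 62250899, on the minus strand, within the span of the long non-coding RNA gene Dleu2. miR-15b-5p maps to chromosome 3, 68813700 to 68813718, on the plus strand, within the span of Smc4, which encodes a condensin subunit. miR-16-5p is made from both of these clusters, and its probe maps 143 bases from that of miR-15a-5p and 144 bases from that of miR-15b-5p. The arrays therefore give a single value for the product of 2 loci. miR-195a-5p maps to chromosome 11, 70048566 to 70048584, on the plus strand, and the RefSeq table lists no gene overlapping its hairpin. The probe of miR-497a-5p maps 332 bases away, to 70048234 to 70048253, and the files also map it to a second place on chromosome 11, 70234732 to 70234751. miR-322-5p maps to chromosome X, 50407455 to 50407475, and miR-503-5p lies 281 bases from it, at 50407174 to 50407188, both on the minus strand within the span of the long non-coding RNA gene C430049B03Rik.

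Each member had 2 probes of 15 spots. The probes are complementary to the miRNA from its 3′ end, and how far they reach into the seed differs. The longer probe covered bases 1 to 22 of miR-15a-5p and of miR-322-5p, bases 3 to 22 of miR-15b-5p and of miR-497a-5p, bases 3 to 21 of miR-195a-5p, bases 5 to 22 of miR-16-5p and bases 8 to 23 of miR-503-5p. The closest pair in sequence was miR-16-5p and miR-195a-5p, which differ at the capitals below.
miR-16-5p: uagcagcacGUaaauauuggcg
miR-195a-5p: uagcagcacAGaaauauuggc
Written from miR-16-5p to miR-195a-5p and counted from the 5′ end, the differences are G10A and U11G. The miR-195a-5p probe has 2 mismatches to miR-16-5p, and the miR-16-5p probe has 3 unpaired bases on miR-195a-5p, 1 of them beyond its end. Binding of one by the other's probe was not tested. The remaining longer probes had at least 4 mismatches to every other member, and that of miR-503-5p had at least 8.

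The tissue label was checked against marker miRNAs. The heart muscle miRNAs miR-1a-3p, miR-133a-3p, miR-208a-3p and miR-499-5p were well above background on all 6 arrays, while skeletal muscle, liver, brain and epithelial markers were not on any. Per the file headers, "well above background" means a spot signal more than 13 background SDs above its background, and here a probe met it when at least 50% of its spots did. The arrays had 234 to 242 miRNAs above that limit in sunitinib and 237 to 252 in control. There was 1 slide, without saturated spots. The 3 control arrays and sunitinib replicate 3 shared a row of the slide, and sunitinib replicates 1 and 2 lay in the other row, so that the only comparison within a row rests on 1 sunitinib array.

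Values below are scaled signals on the log2 scale of the longer probe, which was also the brighter one. Since signals of different probes are not on one scale, levels are compared between samples and not between miRNAs. All 7 members were well above background on all 6 arrays and were tested among 237 detected miRNAs with limma, adjusting by Benjamini-Hochberg over all 237. None of the 7 passed an adjusted p of 0.05, against 3.38% of all tested miRNAs (8 of 237). At an unadjusted p under 0.05 there was 1 member, miR-503-5p, where the share of all tested miRNAs was 19.0%. The log2 change was above 0 in 3 members and below 0 in 4, and its median over the 7 was -0.024, beside a median of 0.019 over all tested miRNAs. The 6 members with the seed AGCAGCA had changes from -0.030 to 0.18. Tissue miRNA was measured in bulk, so fewer cells of a type and less miRNA per cell cannot be told apart.

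**Figure D1:**
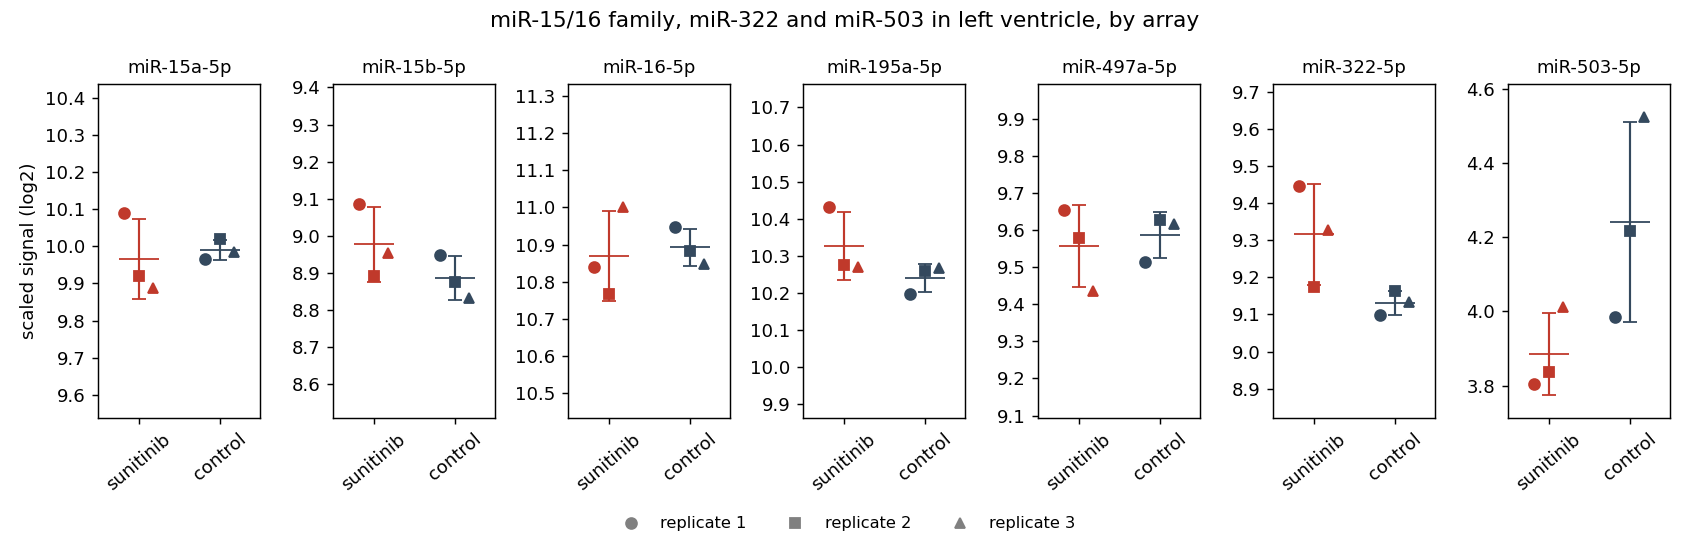
Scaled signal (log2, vertical axis) of the 7 members on each array, with sunitinib left of control; symbols mark replicate numbers, horizontal bars the mean and whiskers the SD (n = 3). Each panel has its own axis of equal span, and the groups overlap in all panels except those of miR-195a-5p and miR-322-5p.

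Of the Dleu2 pair, miR-15a-5p had 10.09, 9.92 and 9.89 in sunitinib replicates 1 to 3, against 9.97, 10.02 and 9.99 in control replicates 1 to 3. The sunitinib values lay on both sides of the control range. The means were 9.97 ± 0.11 in sunitinib and 9.99 ± 0.03 in control (SD, n = 3 each). The log2 change was -0.025 (SE 0.074, 95% interval -0.20 to 0.15, limma adjusted p = 0.88), and on the linear scale the interval ran from 0.869 to 1.11 times control. In the slide row shared by both groups the change was -0.10, from 1 sunitinib array.

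Its cluster partner miR-16-5p, the family member most often studied as a repressor of Bcl2, had 10.84, 10.77 and 11.00 in sunitinib and 10.95, 10.88 and 10.85 in control. Sunitinib replicate 3 was the highest of the 6 arrays and sunitinib replicate 2 the lowest, so the control values lay inside the sunitinib range. Sunitinib minus control was -0.024 on the log2 scale (SE 0.080, 95% interval -0.22 to 0.17, limma adjusted p = 0.88). Within the slide row that held both groups, the sunitinib array stood 0.11 above the control mean, so the sign turned.

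miR-15b-5p, from the Smc4 cluster, had 9.09, 8.89 and 8.95 in sunitinib and 8.95, 8.88 and 8.83 in control. The groups overlapped, with sunitinib replicate 1 the highest. Its change was 0.090 on the log2 scale (SE 0.075, 95% interval -0.091 to 0.27, limma adjusted p = 0.60). The shared slide row gave 0.066.

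On chromosome 11, miR-195a-5p had 10.43, 10.28 and 10.27 in sunitinib and 10.20, 10.26 and 10.27 in control. The groups did not overlap, yet sunitinib replicate 3 exceeded control replicate 3 by far less than the spread within either group. Its log2 change was 0.085 (SE 0.070, 95% interval -0.083 to 0.25, limma adjusted p = 0.59), and its shorter probe gave 0.0048. Within the shared slide row the change was 0.029. miR-497a-5p, from the same cluster, had 9.65, 9.58 and 9.44 in sunitinib and 9.52, 9.63 and 9.62 in control. Here sunitinib replicate 1 was the highest array and sunitinib replicate 3 the lowest. Its change was -0.030 on the log2 scale (SE 0.078, 95% interval -0.22 to 0.16, limma adjusted p = 0.88), and -0.15 within the shared slide row.

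On chromosome X, miR-322-5p had 9.45, 9.18 and 9.33 in sunitinib and 9.10, 9.16 and 9.13 in control. It was the other member whose groups did not overlap, which makes 2 of 7 beside 27.4% of all tested miRNAs. In the authors' deposited table the groups of miR-195a-5p and of miR-322-5p both overlapped. The control values lay close together (9.13 ± 0.03), while the sunitinib values were spread (9.32 ± 0.14; SD, n = 3 each), and sunitinib replicate 2 exceeded the highest control value by little. The log2 change was 0.18 (SE 0.083, 95% interval -0.016 to 0.38, limma adjusted p = 0.29). On the linear scale, sunitinib stood at 1.14 times control (0.989 to 1.31). Without sunitinib replicate 1 the change was 0.12, and within the shared slide row it was 0.20.

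miR-503-5p had 3.80, 3.84 and 4.01 in sunitinib and 3.98, 4.22 and 4.52 in control. Sunitinib replicates 1 and 2 lay below all control arrays, and sunitinib replicate 3 just above the lowest of them. Its log2 change was -0.36 (SE 0.14, unadjusted 95% interval -0.71 to -0.0083, limma adjusted p = 0.25). On the linear scale that interval ran from 0.613 to 0.994 times control.

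The miR-503-5p signal was close to the detection limit. Its longer probe had 14 of 15, 9 of 15 and 13 of 13 usable spots well above background in sunitinib replicates 1 to 3, and 13 of 15, 15 of 15 and 14 of 14 in control replicates 1 to 3. The lowest value among all probes well above background was 3.32 to 3.62 on the sunitinib arrays and 3.18 to 3.54 on the control arrays. The coefficient of variation among the spots of this probe was 7.91% to 24.1% over the 6 arrays, whereas it ran from 1.61% to 7.32% for the longer probes of the other members. The shorter probe, 15 bases long, did not reach the limit on any array. With normexp background correction, which adds an offset of 50 and by construction pulls dim miRNAs toward 0, the change was -0.055. It was -0.23 within the shared slide row and -0.22 without control replicate 3, the highest of the 6 arrays.

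**Figure D2:**
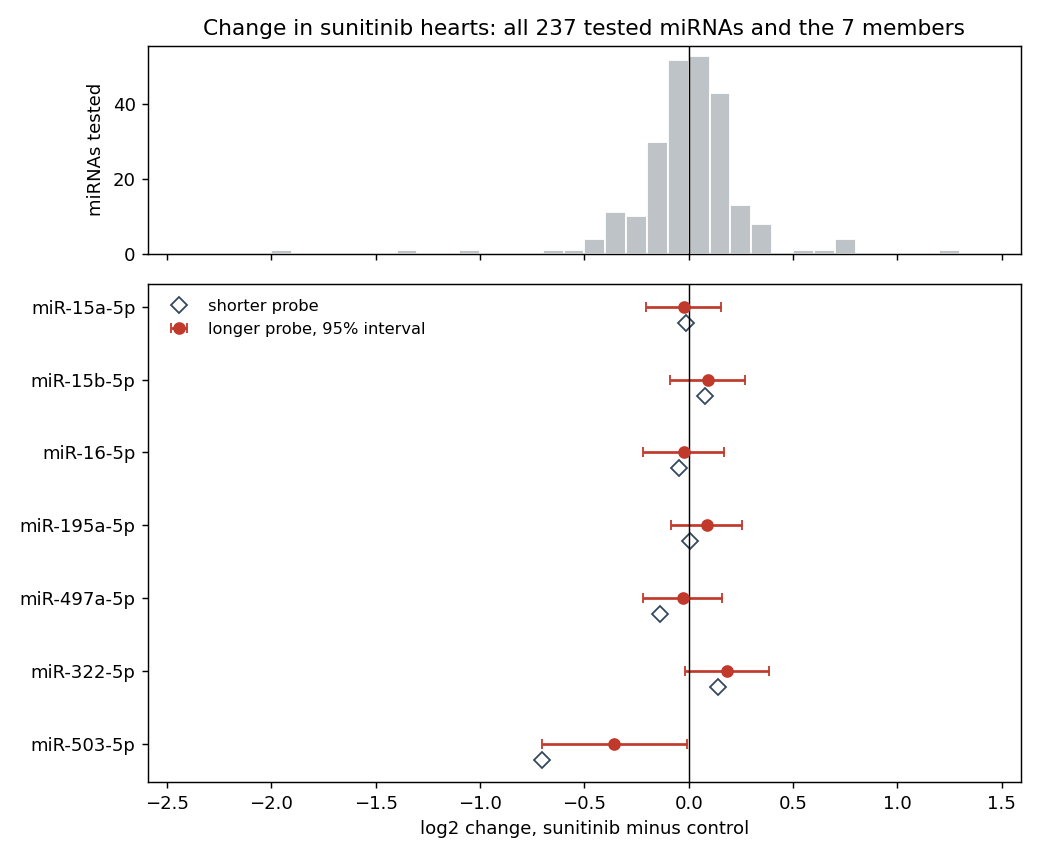
Upper panel, number of the 237 tested miRNAs by log2 change (sunitinib minus control, bins of 0.1); lower panel, the log2 change of each member by its longer probe with the unadjusted limma 95% interval (filled) and by its shorter probe (open). The interval of miR-503-5p alone among the 7 lies below 0, and its change did not pass after adjustment (limma adjusted p = 0.25).

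Both probes of a member changed in the same direction in 7 of 7 members. Since each shorter probe is contained in the longer one and was read on the same arrays, this is not independent support. The shorter probe gave -0.012 for miR-15a-5p, 0.077 for miR-15b-5p, -0.045 for miR-16-5p, -0.14 for miR-497a-5p and 0.14 for miR-322-5p. These 5 shorter probes, and that of miR-195a-5p, were well above background on all 6 arrays. The shorter probe of miR-503-5p gave -0.70, from signals not well above background.

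The highest array was not the same for all members. How many of all tested miRNAs were highest on each array was not counted. Sunitinib replicate 1 held the highest value of 5 members, miR-15a-5p, miR-15b-5p, miR-195a-5p, miR-497a-5p and miR-322-5p. Sunitinib replicate 3 held the highest value of miR-16-5p, and control replicate 3 that of miR-503-5p. The mean of the 6 seed-sharing members, each centred on its own mean, was 0.11, -0.043 and 0.0010 in sunitinib replicates 1 to 3 and -0.033, -0.0068 and -0.031 in control replicates 1 to 3. The sunitinib arrays thus spanned more than the control arrays and covered their range. The pooled SD within groups ran from 0.070 for miR-195a-5p to 0.098 for miR-322-5p among these 6, beside a median of 0.11 over all tested miRNAs, and was 0.21 for miR-503-5p.

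Because clustered miRNAs share a primary transcript, 4 pairs from one cluster were compared within each array, where a scaling factor per array cancels. The miR-16-5p signal joins the products of both its clusters, so the pairs with it do not compare products of a single transcript. The miR-497a-5p probe also maps to a second place on its chromosome. An exact two-sided permutation test over the samples was used, for which the smallest p with 3 against 3 samples is 0.1, so none could pass 0.05. The log2 signal of miR-503-5p minus that of miR-322-5p was -5.64, -5.34 and -5.32 in sunitinib replicates 1 to 3, against -5.11, -4.95 and -4.61 in control replicates 1 to 3. All 3 sunitinib arrays lay below all 3 control arrays. The difference between groups was -0.54, with means of -5.43 ± 0.18 in sunitinib and -4.89 ± 0.26 in control (SD, n = 3 each; exact p = 0.1, Benjamini-Hochberg adjusted p = 0.2 over 4 pairs). With normexp, which by construction pulls the dim miR-503-5p toward 0, it was -0.22 and the exact p was 0.4. A scaling factor cancels in this pair, but the limit of a miR-503-5p signal close to the detection limit does not.

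For miR-195a-5p minus miR-497a-5p, the sunitinib arrays gave 0.78, 0.70 and 0.83 and the control arrays 0.68, 0.63 and 0.65. The groups again did not overlap, although the difference was small at 0.12 (exact p = 0.1, adjusted p = 0.2; n = 3 each). It was 0.18 within the shared slide row and 0.077 with quantile normalization (exact p = 0.4). The authors' deposited table gave 0.091 (exact p = 0.2), and the groups overlapped there. For miR-15b-5p minus miR-16-5p the control arrays were nearly equal, with a mean of -1.89 ± 0.15 in sunitinib and -2.01 ± 0.0087 in control (SD, n = 3 each), and the groups overlapped. The difference was 0.11 (exact p = 0.4, adjusted p = 0.53), 0.048 with quantile normalization, 0.044 without sunitinib replicate 1, 0.19 without sunitinib replicate 3 (exact p = 0.1) and -0.043 within the shared slide row. In the deposited table it was 0.16 (exact p = 0.1), with groups that did not overlap. Which pairs were apart thus depended on the processing. For miR-15a-5p minus miR-16-5p the difference was -0.0011, with means of -0.903 ± 0.19 in sunitinib and -0.902 ± 0.068 in control (SD, n = 3 each; exact p = 1). Within the shared slide row it was -0.21, from 1 sunitinib array.

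**Figure D3:**
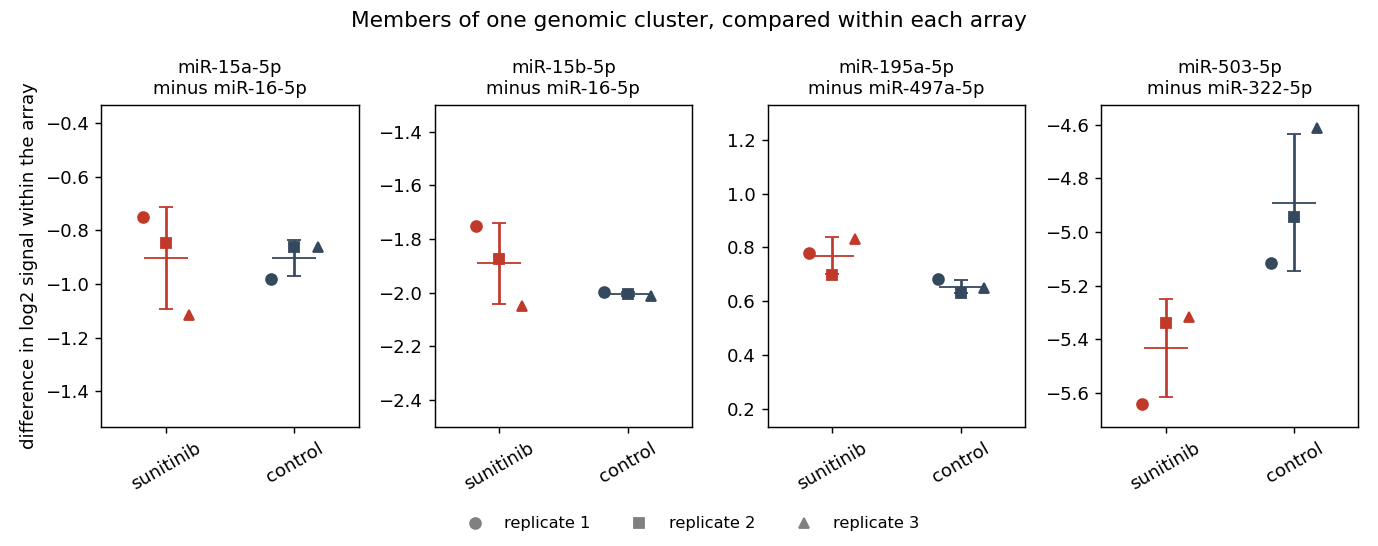
Difference in log2 signal between 2 members of one cluster within each array (vertical axis), with sunitinib left of control; symbols mark replicate numbers, bars the mean and whiskers the SD (n = 3). Groups are apart for miR-503-5p minus miR-322-5p and miR-195a-5p minus miR-497a-5p, and overlap for both pairs with miR-16-5p, whose signal joins both its clusters. Panels have separate axes of equal span.

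The other strand of each hairpin is usually degraded once the mature strand is loaded. Of 8 partner strands on the arrays, from miR-15a-3p to miR-503-3p, none had its brightest probe above the detection limit on any array, and none was tested. The X-linked transcript also carries miR-351, miR-542 and the miR-450 hairpins. Of 9 mature miRNAs from these hairpins 1 was tested, miR-450a-5p, and the other 8 were well above background on no array. miR-450a-5p had 4.53, 4.26 and 4.40 in sunitinib and 4.39, 4.44 and 4.49 in control. The groups overlapped, and sunitinib minus control was -0.042 on the log2 scale (SE 0.086, limma adjusted p = 0.83).

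Among the 1608 arrayed miRNAs with a mature sequence in RefSeq, 10 have the seed AGCAGCA. The 4 that are not members, miR-195b, miR-6342, miR-6353 and miR-6419, were well above background on no array, as was miR-497b, which is encoded on the locus of miR-497a. miR-503-5p was alone with AGCAGCG. miR-103-3p and miR-107-3p, metabolic regulators whose 5′ ends resemble the family's seed shifted by a base, were tested as relatives. The change was -0.035 (SE 0.056, limma adjusted p = 0.78) for miR-103-3p and 0.084 (SE 0.061, limma adjusted p = 0.53) for miR-107-3p, so neither passed.

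By centred profile over the 6 arrays, the tested miRNAs nearest to the mean of the 7 members were miR-27a-3p, miR-130a-3p and miR-151-5p, with root mean square differences of 0.037, 0.037 and 0.038 log2 units beside a median of 0.14 over 230 compared. Their changes were also near 0, at 0.038, 0.019 and 0.053. Nearest to miR-503-5p were miR-219a-5p, miR-320-3p and miR-690, at 0.13, 0.15 and 0.15 beside a median of 0.28. Their log2 changes were -0.25, -0.15 and -0.28. This measure describes 6 arrays and was not tested. The profiles contain the difference between groups, so the likeness in log2 change follows in part from the selection.

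Leukocytes also express miR-15 and miR-16. Of 5 leukocyte markers on the arrays 4 were tested and 2 were lower past the threshold, miR-223-3p (-1.32, limma adjusted p = 0.00087) and miR-142a-3p (-0.64, limma adjusted p = 0.020). The other 2 tested had changes above 0 and did not pass, miR-150-5p at 0.35 (limma adjusted p = 0.36) and miR-155-5p at 0.15 (limma adjusted p = 0.25, unadjusted p = 0.042), whose groups did not overlap. The remaining marker, miR-142a-5p, was well above background on no array and was not tested. Its log2 change was -1.11. The summed signal of the 5 was 8.73 to 8.98 in sunitinib and 9.32 to 9.47 in control on the log2 scale. Such a sum adds probes that are not on one scale and weighs the brightest most. The highest control mean of the 5 was that of miR-223-3p, which also had the largest fall. The lower sum therefore does not show a drop across the leukocyte markers. None of 4 erythroid markers passed. Their summed signal, with the same limit, was 12.14 to 12.22 in sunitinib and 11.75 to 12.29 in control. The part of these cells in the members' signals was not tested.

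**Figure D4:**
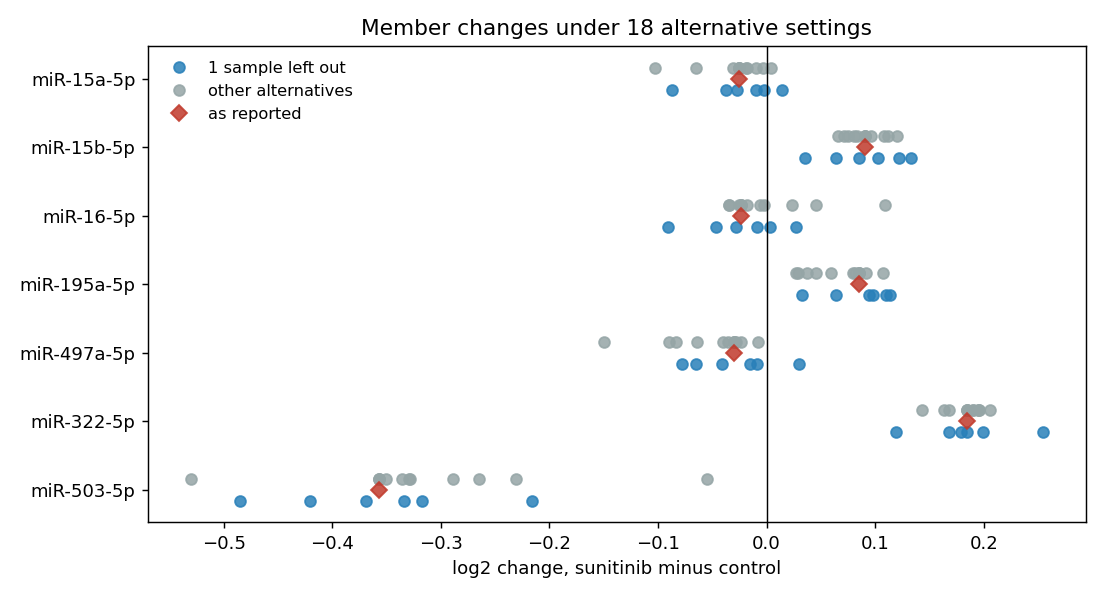
Log2 change (sunitinib minus control, horizontal axis) of each member as reported (diamonds), with 1 sample left out (blue) and under the 12 other alternatives (grey). miR-322-5p, miR-15b-5p and miR-195a-5p stay above 0 and miR-503-5p below 0 throughout, while miR-15a-5p, miR-16-5p and miR-497a-5p lie on both sides of 0.

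Over 18 alternative settings, none of the 7 members passed the threshold in any. The log2 change ran from 0.12 to 0.25 for miR-322-5p, 0.035 to 0.13 for miR-15b-5p, 0.027 to 0.11 for miR-195a-5p and -0.53 to -0.055 for miR-503-5p, without a change of sign. The -0.53 came from the mean of all probes, which includes the shorter miR-503-5p probe, not well above background on any array. The lowest limma adjusted p over these settings was 0.085 for miR-503-5p, with the scanner software's summed signal, and 0.090 for miR-322-5p, without sunitinib replicate 2. In the authors' deposited table the changes of these members were -0.29 and 0.14. There the groups of miR-503-5p did not overlap, with 3.28 to 3.40 in sunitinib and 3.50 to 3.85 in control, while those of miR-322-5p did. The filter settings and the replicate block leave a member's change as reported by construction, so they could not turn its sign.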

How the data were processed

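The authors' scanner files hold spot intensity on a linear scale, background-subtracted by Agilent Feature Extraction, version 10.7 per the submitters' processing notes and 10.7.1.1 per the file headers (build mm9). How the deposited value table of log2 values was scaled or centred is not given in the sources used here. It served as an alternative; its columns had medians of 2.199, 2.200 and 2.196 in sunitinib and 2.196, 2.195 and 2.196 in control. Groups came from sample titles.

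Control and outlier spots were left out. Processed signals were scaled so that arrays shared the 75th percentile of 393 probes, those well above background on every array, then floored at 1, log2-transformed and averaged by probe. Each miRNA was represented by its brightest probe. Testing required detection on all 3 arrays of either group, which kept 237 of 1881 miRNAs. Groups were compared with limma 3.58.1 (lmFit, eBayes) in R 4.3.3. The fit was also run on simulated data with independent noise and no slide row effect. That check does not give the power for changes as small as those of the members. The members and lists were chosen with earlier results of these data known. The naming rule took the members, their partner strands, cluster neighbours, seed relatives, nearest profiles and cell type markers. Alternatives covered background correction, scaling, probe summary, filter, array weights, blocks and leaving out each sample. The number of arrays limits the precision.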

Additional observations from a re-analysis of the deposited data

How the results depend on the processing

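No member passed the threshold in any of the 18 alternatives. The 8 miRNAs past the threshold numbered 13 when the percentile was taken over all probes or arrays were weighted, 4 under normexp, quantile normalization or no scaling, 3 without a filter, 2 with the summed signal or a replicate block, 1 with a slide row block and 2 to 8 without a sample. The members' median change was 0.045 with array weights, a shift larger than the spread between replicates (SD 0.063), and -0.015 to 0.030 without a sample. Changes near 0 turned sign. For miR-15a-5p the change was 0.0040 with the summed signal and -0.087 to 0.014 without a sample. For miR-16-5p it was 0.023 with quantile normalization, 0.045 with array weights, 0.11 with a slide row block and -0.090 to 0.027 without a sample. For miR-497a-5p it was -0.078 to 0.030 without a sample. miR-15a-5p minus miR-16-5p was 0.00065 with normexp, 0.016 with the mean of all probes, 0.010 with the summed signal, 0.0036 in the deposited table, -0.21 with a slide row block and -0.078 to 0.10 without a sample. miR-15b-5p minus miR-16-5p was -0.043 with a slide row block. The causes were not tested. Deviations of same-numbered samples correlated at 0.18, 0.22 and -0.055 across miRNAs. Differently numbered samples were not compared, so whether replicate numbers pair the samples was not settled. The replicate block gave no member past the threshold (miR-503-5p -0.36, limma adjusted p = 0.21), nor did the fit without it. miR-503-5p is limited by its low signal over background.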
